A study of Mus musculus with 15 samples.

Results

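Mouse embryonic stem cells that lack Nat1 and carry an induced Map3k3 transgene were compared with wild-type stem cells, 3 arrays against 3 of the 15 arrays of the study, over all 14459 measured genes. The comparison asks which genes were still unlike wild-type after induction and which had gone past the wild-type level. Both groups were chosen by their labels alone. The induced cells are Nat1-null cells with a tetracycline-inducible Map3k3 transgene, grown with doxycycline (Dox), and are called induced cells here. The wild-type cells carry no stated transgene, and their labels name no Dox. The state before induction was taken from 3 arrays of the same tet-Map3k3 Nat1-null cells grown without Dox, called uninduced cells. The 3 arrays of parental Nat1-null cells and 3 of Nat1-null cells with a tet-inducible EGFP transgene and Dox serve as background. All null-derived groups lack Nat1, so the comparison differs in Nat1, in the transgene and in Dox at once. All cells were grown in standard stem cell medium on gelatin, without a feeder layer named, and the labels give neither the length of the Dox treatment nor whether each line is 1 clone. No label states that samples within a group came from separate cultures, so the p-values rest on the spread among these 6 arrays and the others of the fit, which may be technical.

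Nat1, whose current symbol is Eif4g2, encodes a relative of the scaffold eIF4G that lacks the cap-binding part and takes part in translation initiation on selected messages. Map3k3 encodes a kinase at the top of MAP kinase cascades, which passes signals to the ERK5, p38 and JNK branches and to NF-kB. Stem cells leave the naive state when ERK signalling lowers factors such as Klf4 and Tbx3 and raises those of the formative and primed states.

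Each value below is a log2 signal relative to the 75th percentile of its array, and calls needed a limma adjusted p below 0.05 together with a difference of 1.5-fold or more. The 15 arrays had 42.8 to 54.0% of probes well above background, and induced array 2 had both the lowest share and, at 12.7 units, the highest minimum signal. Replicates correlated at 0.997 to 0.998 in wild-type and at 0.987 to 0.996 in induced cells, and the median SD of a gene was 0.09 and 0.14. Wild-type and induced arrays shared no slide, so slide and group can be separated only through the EGFP arrays, which lay on both slides. Of these, only array 3 lay on the slide of the wild-type arrays. It also differed from EGFP arrays 1 and 2 in slide row, so the slide term cannot be told apart from row or array number there. With the slide as a block, 2328 genes were higher and 2101 lower. Only array 1 of the induced cells lay in the same slide row as the wild-type arrays. On that array 5537 of the called genes differed in the same direction and 5212 (94.1%) also by at least 1.5-fold. That array is among those behind the calls, so the agreement was largely built in and cannot test for an effect of the row. In bulk RNA, fewer cells of a type and less RNA per cell cannot be told apart.

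Stem cell markers were well above background in both groups. Pou5f1, the core pluripotency factor, read 4.06, 4.11 and 4.29 in wild-type and 3.86, 4.11 and 4.18 in induced cells, a log2 difference of -0.11 with an SE of 0.11 that was not called. Its ranges overlapped. Sall4 (0.08) and Zfp42 (0.07) were not called either, while Sox2 was 2.15-fold, Nanog 1.77-fold and Esrrb 1.53-fold higher in induced cells. Of 13 fibroblast and feeder markers, 9 were measured, 1 was higher and 6 were lower in induced cells, and their summed linear level, in units of the array's 75th percentile, was 45.2 to 47.9 in wild-type and 13.3 to 49.1 in induced arrays. Of the 13, 9 were well above background on all 3 wild-type arrays and 5 on all 3 induced arrays. Lum, Prrx1, Fap and Tcf21 were well above background in neither group. Twist2, Dcn and Meox1 were so in wild-type cells but on no induced array. Among 10 endothelial markers, 7 were well above background on all 3 wild-type arrays and 5 on all 3 induced arrays. Of 7 measured, 3 were lower, and Cdh5 was well above background in neither group. Their summed level was 33.5 to 35.1 in wild-type and 24.8 to 28.4 in induced arrays. Of 10 blood markers, 5 were measured, 2 were higher and 2 lower, the summed level was 4.75 to 5.23 and 7.31 to 9.96, and Ptprc, Cd53, Lyz2 and Tyrobp were well above background in neither group. Over all genes tested, 18.4% were higher and 19.9% lower in induced cells. The part of other cells in the differences below was not tested.

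Eif4g2 read 4.14, 4.40 and 4.39 in wild-type and 1.64, 1.54 and 1.64 in induced cells. The groups lay far apart, and the gene was 6.53-fold lower (log2 difference -2.71, SE 0.14, adjusted p = 1.53e-08). In uninduced cells it read 1.72, 1.43 and 1.70, which was 6.48-fold below wild-type. The probe for Map3k3 read -0.54, -0.54 and -0.56 in wild-type and -0.48, -0.36 and -0.67 in induced cells. Those ranges overlapped, and the log2 difference of 0.04 was not called. The sources used here do not say whether the transgene carries this probe's sequence, and the reading therefore checks the label in neither direction.

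After induction 5538 genes (38.3% of those tested) differed from wild-type, 2657 higher (18.4%) and 2881 lower (19.9%). These shares are the background for the counts of list members below, and no list was tested against them. Before induction the count was 5763 (39.9%), with 2571 higher (17.8%) and 3192 lower (22.1%). Induction itself changed 2584 genes (17.9%) between the uninduced and induced cells, of which 1777 rose (12.3%) and 807 fell (5.58%). The 3 comparisons share arrays, so their counts are set side by side and their overlap is used only to sort genes. In 70.7% of all genes the induced arrays lay wholly above or wholly below the wild-type arrays, and 1249 genes differed at least 4-fold. The median over all genes was -0.01. For 1270 of the called genes the fold is a bound, because the dimmer group was not well above background on all its arrays; such folds are written "at least". For them the dim group entered on each array at its own signal or at the array's lowest signal well above background, whichever was higher. The own signal was the higher on every array in 1056 of the 1270, where the bound equals the ratio of the group means. A bound therefore concerns group means, and a single array can differ by less. Of 1285 called genes with several passing probes, the probes differed in sign in 89, among them Cdkn1a and Tpm1.

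The genes were sorted by these calls. The 7273 genes (50.3%) called in neither comparison with wild-type are not described further. Of the rest, 3895 genes or 67.6% of the 5763 uninduced calls stayed unlike wild-type in the same direction, 1716 higher and 2179 lower. Of those, 3117 were not called between uninduced and induced cells, 507 had moved toward wild-type without reaching it, and 271 had moved further away. Another 220 genes (3.82%) overshot, 205 from below wild-type to above it and 15 the other way. In 8 of these 220 the uninduced and wild-type signals were both below background, so that only the induced value was measured. With the slide as a block 92 genes overshot, 82 of them among the 220, and the median SE of a gene was 0.22 instead of 0.12. A further 727 genes (12.6%) returned, meaning that they were called before, changed toward wild-type on induction and were not called after it, 533 by rising and 194 by falling. The remaining 921 uninduced calls were called neither after induction nor between the induced and uninduced cells. Finally, 1423 genes were gained, being called only after induction, 736 higher and 687 lower, of which 581 were also called between induced and uninduced cells and 842 were not. A gene that was not called is not shown to be at the wild-type level.

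**Figure D1:**
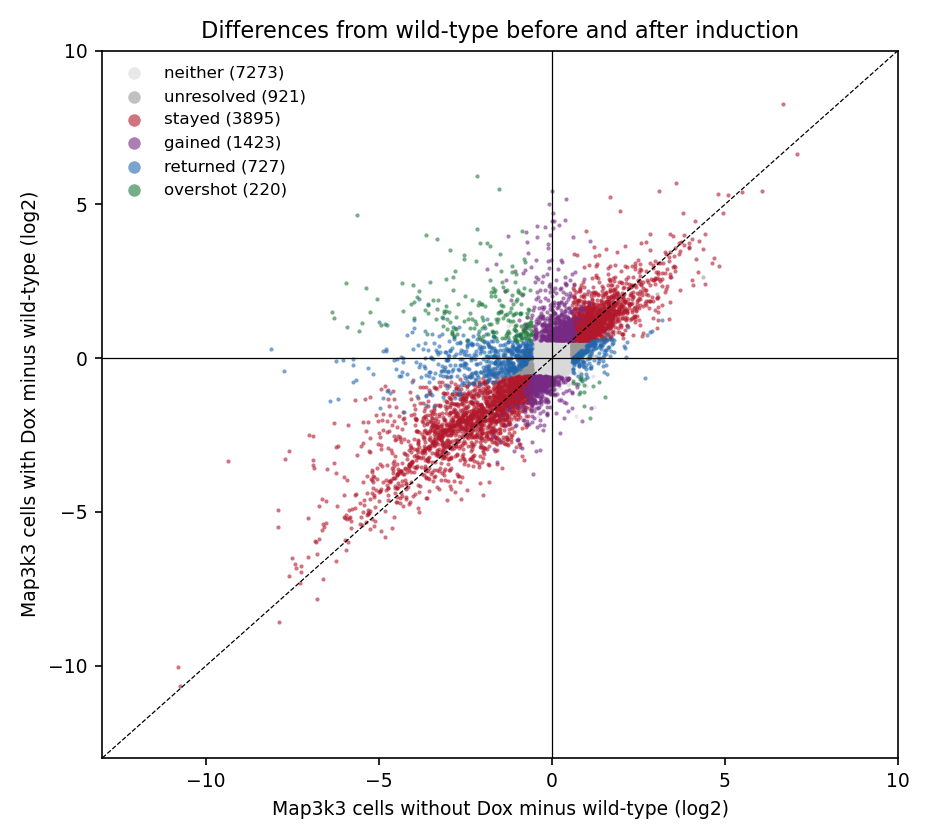
Each point is 1 of the 14459 genes, placed by its log2 difference from wild-type without Dox (x axis) and with Dox (y axis), and coloured by its class; numbers in the key count genes. The 3895 genes that stayed follow the dashed line of equal differences, the 727 that returned have a median of 0.03 on the y axis, and most of the 220 that overshot lie in the upper left. Where the classes lie follows largely from how they were defined.

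The EGFP cells, which also had Dox, stood where the uninduced cells stood. The genes that overshot upward had a median difference from wild-type of -1.61 in uninduced, -1.57 in EGFP and -1.55 in parental null cells, and of 1.35 in induced cells. Those that returned by rising had medians of -1.67, -1.60 and -1.45, and of -0.03 in induced cells. For those that stayed lower the medians were -1.88, -1.86 and -1.68, and -1.70 in induced cells. The classes were made from the uninduced and induced calls, so the medians of those cells largely follow from the sorting. The differences of EGFP and parental null cells from wild-type were not used in it. All these groups are compared with the same wild-type arrays.

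Among genes measured on all arrays of both groups, the largest excess over wild-type was in Nkx6-3, a homeobox gene. It read -4.41, -4.44 and -4.48 in wild-type and 2.07, 1.89 and 2.67 in induced cells. All 3 induced arrays lay above all wild-type arrays by a wide margin, and the gene was 101-fold higher (log2 difference 6.65, SE 0.31, adjusted p = 7.37e-09); it was 137-fold higher before induction. Islr2, which encodes a membrane protein with leucine-rich repeats, was 43.0-fold higher, Wnt10a, a Wnt ligand, 43.0-fold, Inhbb, an activin subunit, 42.4-fold, Rapgef3, an exchange factor for Rap GTPases, 40.8-fold and Msln, a surface glycoprotein, 38.1-fold. Wnt10a and Msln stayed high and went further with induction, from 8.53-fold and 3.20-fold in uninduced cells, whereas Inhbb was 44.8-fold higher before it. Of the genes not above background on every wild-type array, the homeobox genes Tlx2, at least 308-fold, and Hoxc9, at least 52.0-fold, had the largest bounds beside those of the late cornified envelope genes Lce3c, at least 60.9-fold, and Lce3b, at least 45.6-fold.

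The largest measured deficits were in Klhl13, an adaptor of a ubiquitin ligase, at 89.9-fold lower, and Dppa3, a maternal factor that guards DNA methylation, at 75.4-fold lower. Klhl13 read 6.08, 6.35 and 6.32 in wild-type and -0.46, 0.16 and -0.41 in induced cells, and Dppa3 read 3.25, 3.41 and 3.41 against -3.41, -2.62 and -2.61. Neither pair of groups overlapped. Klhl13 had moved a little toward wild-type, from 183-fold lower in uninduced cells, and Dppa3 had been 61.8-fold lower. The next were the tetraspanin Tspan7 (63.2-fold), the ectonucleotidase Enpp3 (49.7-fold), the cardiac myosin Myh6 (45.7-fold), Pnma5 (43.0-fold), and Cnn1 (37.3-fold) and Myl9 (35.8-fold) of smooth muscle. All 8 belonged to the class that stayed lower, and Klhl13, Tspan7 and Pnma5 are on the X chromosome.

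Imprinted genes held the largest bounds. Meg3, a maternally expressed noncoding RNA, read 5.64, 5.69 and 5.69 in wild-type and -3.59, -5.39 and -6.02 in induced cells, of which 1 array was well above background. The groups were far apart. In group means Meg3 was at least 1634-fold lower with Dox and at least 1737-fold lower without (SE of the log2 difference 1.17). The induced array at -3.59 differed from wild-type by less than this. All 3 passing probes of Meg3 read lower, by log2 differences of -10.67 to -5.71. H19, the noncoding RNA beside Igf2, read 5.79, 5.54 and 5.69 against -2.10, -5.20 and -5.79. It was at least 1050-fold lower in group means, but by less on the array at -2.10. Its induced arrays spread more than those of wild-type, yet none came near them. Snrpn was at least 387-fold, Mirg at least 226-fold, Kcnq1ot1 at least 88.9-fold, Peg3 at least 47.9-fold, Magel2 at least 33.0-fold and Peg13 at least 24.7-fold lower.

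Of the 31 imprinted genes measured, 15 were lower and 6 higher, with 16 that stayed, 2 that overshot, 3 gained and 3 returned, and a median of -0.69. Before induction 19 were lower and 2 higher. Dlk1, a paternally expressed Notch-family ligand of the Meg3 cluster, parted from its neighbours: it read 1.52 ± 0.02 (SD, n = 3) in wild-type, and -0.64, -1.59 and -0.82 in induced cells against -3.59, -6.22 and -6.32 in uninduced ones. In group means induction raised Dlk1 at least 20.5-fold, though the uninduced array at -3.59 lay nearer to the induced ones. Dlk1 was still 5.80-fold below wild-type. Igf2, a growth factor, went past wild-type, from -3.09, -3.55 and -3.38 in wild-type and -6.59, -6.79 and -6.50 in uninduced cells to -1.39, -1.27 and -1.72, which was 3.69-fold above wild-type. Its neighbour H19 stayed low on the same arrays. Peg10 also overshot (1.62-fold higher), and Grb10 (3.03-fold) and Slc22a18 (2.71-fold) stayed higher. Slc38a4 shows how much single arrays can weigh, since it read 1.72, -1.31 and 2.31 in induced against 3.08, 3.32 and 3.21 in wild-type cells and its log2 difference of -2.29 was not called (SE 2.09).

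The enzymes that set DNA methylation differed as well. Dnmt3b, a de novo methyltransferase, read 7.08, 7.16 and 7.25 in wild-type and 5.36, 5.56 and 5.40 in induced cells, without overlap, and was 3.31-fold lower after 5.06-fold before. Dnmt3a recovered further, from 7.60-fold to 1.71-fold lower. Dnmt3l, their cofactor, was not called before induction and was 3.27-fold lower after it, at 3.89, 4.17 and 4.23 against 5.71, 5.81 and 5.90. The methyl-DNA binding genes Mbd2 (4.09-fold) and Mbd1 (2.25-fold), the hydroxylase gene Tet2 (3.55-fold) and Zfp57 (3.03-fold), whose product protects imprints, stayed higher. Of 14 members measured, 5 were higher and 3 lower, and Dnmt1 (0.11), Uhrf1 (0.34) and Trim28 (-0.06) were not called. Among 15 germline genes sensitive to methylation, 2 were higher and 5 lower, a share called not far from the 38.3% of all genes. Of 6 genes of the 2-cell-like state, Zscan4f, Zscan4c and Tcstv3 stayed lower.

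Among naive pluripotency factors, 8 of 18 were above wild-type after induction. Klf4 read 3.33, 3.17 and 2.99 in wild-type, 6.63, 6.68 and 6.66 in uninduced and 6.12, 6.13 and 6.11 in induced cells. The 3 groups did not overlap: Klf4 was 7.76-fold above wild-type after induction (log2 difference 2.96, SE 0.08, adjusted p = 1.15e-10) and 11.3-fold before. Tbx3 read 2.38, 2.61 and 2.39 in wild-type and 6.39, 6.17 and 6.26 in induced cells and was 14.0-fold higher, again with no overlap. Tfcp2l1 (6.82-fold), Gbx2 (4.95-fold), Prdm14 (4.58-fold), Klf5 (3.83-fold), Nanog and Esrrb stayed higher too. The other 10 were 4 lower ones and 6 that were not called, against 12 higher and 2 lower before induction, and the median was 0.21 after 0.92. The 4 lower ones were Dppa3, Fbxo15 (4.87-fold), Pecam1 (2.05-fold) and Klf2 (1.81-fold), the last 2 of which were called only after induction. Among the general pluripotency genes, Lin28a, an RNA-binding protein that blocks let-7, was 3.00-fold lower after 1.72-fold before, and Lin28b was 6.21-fold lower.

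Of 20 measured factors of the formative and primed states, 12 were below wild-type and 3 above, the same counts as before induction, with a median of -1.39 after -1.65. Fgf5, a marker of the formative state, read -0.31, -0.19 and -0.06 in wild-type and -3.55, -2.10 and -3.61 in induced cells, and was not well above background in uninduced cells. It rose at least 9.54-fold on induction and was still 7.46-fold below wild-type, with no overlap. Cdh2 (N-cadherin) rose 9.40-fold and was 3.60-fold lower, with 1 induced array at 1.39, inside the wild-type range, and the others at -1.22 and -1.23. Sall2 rose 2.26-fold and was 6.45-fold lower. Other members moved away from wild-type: Otx2, a driver of the exit from the naive state, fell 1.93-fold on induction and was 2.45-fold below wild-type, Sox3 fell 2.00-fold and was 3.94-fold lower, and the Nodal inhibitor Lefty1 fell 1.82-fold and was 5.41-fold lower. Lef1 (5.87-fold), Sfrp2 (8.46-fold), Zic2 (5.15-fold) and Pou3f1 (2.81-fold) stayed lower. In the neuroectoderm list 8 of 14 were lower and 1 higher. In the mesendoderm list 4 of 12 were lower, T among them at least 18.9-fold and Wnt3 at least 26.2-fold. Foxa1, a forkhead factor of endoderm, overshot and was 4.49-fold higher, the only higher member. The share called in the mesendoderm list was near the 38.3% of all genes.

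Trophectoderm genes, which mark the outer lineage of the blastocyst, included 6 that overshot. Of 17 measured, 10 were higher and 3 lower after induction, with a median of 1.91, against 3 higher and 12 lower with a median of -2.57 before. Cdx2, the homeobox factor that specifies trophectoderm, read -3.16, -3.31 and -3.08 in wild-type and was not well above background in uninduced cells; in induced cells it read 0.43, 1.57 and 0.48. The induced arrays lay above all wild-type arrays, and Cdx2 was 16.1-fold above wild-type (SE of the log2 difference 0.25, adjusted p = 6.49e-08) after a deficit of at least 11.7-fold. Esx1, a homeobox gene of placenta on the X chromosome, went from -3.32, -3.49 and -3.40 in uninduced cells past -1.66, -1.54 and -1.61 in wild-type to 2.15, 1.97 and 1.99, which was 12.5-fold above wild-type. Plet1 (8.90-fold), Hand1 (4.92-fold), Gata3 (4.55-fold) and the keratin Krt8 (2.28-fold) overshot likewise. Its keratin partner Krt18 returned by the rule, at 8.37, 8.14 and 8.32 against 7.32, 7.30 and 7.28, values that did not overlap but whose log2 difference of 0.98 was not called. Gata2 (7.27-fold), Tead4 (5.98-fold) and Tfap2a (5.18-fold) had been above wild-type before and stayed so, and Ascl2, Plac1 and Tfap2c stayed lower.

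Genes of primitive endoderm, the inner lining of the blastocyst, were next. Of 18 measured, 11 were higher and 6 lower, with a median of 1.24 after -0.83. The basement membrane collagens Col4a1 (4.12-fold) and Col4a2 (4.63-fold) overshot, as did the transcription factor Foxa2 (2.41-fold). Sox17 was well above background in induced cells but on no wild-type or uninduced array, and was at least 4.30-fold above wild-type with no measured level before induction. Gata6, the factor that specifies this lineage, read -3.66, -3.71 and -4.00 in wild-type and -1.34, -1.70 and -1.63 in induced cells and was 4.70-fold higher, with no overlap and no call before induction. Gata4, Pdgfra and Afp were gained as well, at least 2.49-fold, 2.86-fold and 6.28-fold. These factors were dim, and Dab2, Cubn and Amn of the mature lineage stayed lower.

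Genes of the cornified envelope, the protein shell of skin cells, were among the largest overshoots. Crct1 read -0.71, -0.59 and -0.60 in wild-type, was not well above background in uninduced cells, and read 3.92, 4.35 and 3.79 in induced cells. It was 25.1-fold above wild-type (SE of the log2 difference 0.23) after a deficit of at least 49.4-fold, and no arrays overlapped. Cnfn (cornifelin) was not called before induction and rose from -3.52, -3.68 and -3.30 to 1.18, 1.72 and 0.88, against -3.79, -3.96 and -3.96 in wild-type, which was 35.8-fold. Sprr1a (10.2-fold), Sbsn (7.14-fold) and Dmkn (5.48-fold) overshot, and Tgm1, the transglutaminase that crosslinks the shell, stayed 6.30-fold higher. Yet of 16 members measured 7 were higher and 4 lower, and loricrin (Lor), a main component, was 4.00-fold lower. Lce3d was gained, at 20.3-fold. Near-identical Lce3 genes may share probe signal, so single members of that family are uncertain.

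Other epithelial genes went the same way. Of 21 tight junction and desmosome genes 10 were higher and 4 lower, with a median of 0.83 after -0.81. Cldn3 read 0.96, 0.75 and 0.56 in wild-type and 3.17, 3.29 and 3.22 in induced cells, 5.53-fold higher, and Cldn6, Cldn9, Dsp and Ocln overshot with it. Cldn4 (3.98-fold), Cldn7 (2.45-fold) and Tjp1 (1.77-fold) were gained, whereas Esrp1 (3.30-fold) and Marveld3 (4.55-fold) stayed lower and Epcam (-0.05) was not called. Of 18 S100 and annexin genes, which encode calcium-binding proteins, 9 were higher and 2 lower. Anxa1 went from -1.77, -2.93 and -1.44 in uninduced cells past 3.79, 3.96 and 3.94 in wild-type to 6.15, 6.76 and 6.13. It was 61.5-fold lower before and 5.47-fold higher after induction, the groups not overlapping. Anxa2 (4.83-fold), S100a6 (4.93-fold) and S100a4 (4.11-fold) overshot too, while Anxa6 stayed 5.01-fold lower.

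Signalling genes downstream of MAP kinases were mixed within each family. The products of AP-1 genes form dimers that bind DNA, and the pattern searched for below was TGANTCA, where N is any base. Among 12 such genes, 6 were higher and 3 lower, against none higher and 6 lower before induction. Fosl1 read -1.25, -1.58 and -1.81 in wild-type and 0.17, 0.67 and 0.15 in induced cells and was 3.68-fold higher; Atf3 (3.60-fold), Fosl2 (2.49-fold) and Fosb (1.62-fold) also overshot. Jun (2.21-fold) and Jund (1.85-fold) were gained, while Fos was 1.71-fold lower. Of 11 MAP kinase phosphatases, which switch the kinases off, 6 were higher and 2 lower: Dusp9 (3.24-fold), Dusp1 (3.05-fold), Dusp10 (2.54-fold) and Dusp14 (1.75-fold) overshot, and Dusp4 rose 6.72-fold and remained 2.50-fold below wild-type. Of 15 genes of the early ERK response, Ier3 (9.14-fold), Phlda1 (4.42-fold) and Etv4 (4.44-fold) were higher among 6, and Egr1, the immediate early factor, was lower: it read 0.80, 1.74 and 0.67 against 3.07, 3.04 and 2.71 in wild-type, 3.65-fold, and it had not been called before. In the cascade itself 7 of 24 were higher and 1 lower, a share called that lies below the 38.3% of all genes. Sos2, an exchange factor for Ras, overshot from 1.77-fold lower to 2.12-fold higher, and Mapk3 (ERK1) stayed 1.86-fold lower.

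The NF-kB list had 11 of 15 members higher and none lower, against 7 and 2 before induction, with a median of 1.28 after 0.58. The counts over all genes tested were 18.4% higher and 19.9% lower. Nfkbie, an inhibitor that holds NF-kB in the cytoplasm, was 6.27-fold higher, at -0.11, 0.33 and 0.07 against -2.52, -2.46 and -2.68. The subunits Nfkb1 (3.63-fold) and Rela (3.09-fold) stayed higher, and Rela had risen further from 2.02-fold. Tnfaip3, a feedback inhibitor, overshot (3.40-fold), and Traf1 (3.62-fold), Birc3 (2.42-fold) and Nfkb2 (2.23-fold) were gained. Birc3 already lay 0.58 above wild-type (log2) before induction, without a call. Of the 15, 5 rose between uninduced and induced cells and none fell, where 12.3% of all genes rose. Of 13 chemokines and cytokines 7 were higher and 3 lower. Il11, a cytokine, read -1.79, -1.94 and -2.29 in wild-type, -3.92, -4.11 and -4.25 in uninduced and 1.34, 2.66 and 1.23 in induced cells, 13.4-fold above wild-type and with no overlap. Csf2, a colony-stimulating factor, was gained with a lower bound of 4.00 on the log2 scale, Ccl2 (2.90-fold), Cxcl1 (2.37-fold) and Csf1 (2.00-fold) overshot, and Il33, Cxcl5 and Ccl7 stayed lower.

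The promoters of the genes named in the classes that overshot or were gained were searched for TGANTCA, which reads the same on both strands, because AP-1 genes were among those that overshot. Of 20 named genes, 17 were in the RefSeq promoter table (GRCm38.p6), and 2 held the motif in the 250 bases before a start, Il11 at 1 of its 2 starts and Esx1. The motif begins 98 bases before the start in Il11, chr7:4778142-4778391 on the minus strand, and 145 bases before it in Esx1, chrX:137120327-137120576 on the minus strand. Both are shown 5′ to 3′ with the motif in capitals.
Il11: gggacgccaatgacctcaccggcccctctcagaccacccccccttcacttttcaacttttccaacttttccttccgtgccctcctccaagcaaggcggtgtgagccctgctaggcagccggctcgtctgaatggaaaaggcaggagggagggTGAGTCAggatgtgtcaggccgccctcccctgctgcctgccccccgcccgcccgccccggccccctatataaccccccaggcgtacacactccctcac
Esx1: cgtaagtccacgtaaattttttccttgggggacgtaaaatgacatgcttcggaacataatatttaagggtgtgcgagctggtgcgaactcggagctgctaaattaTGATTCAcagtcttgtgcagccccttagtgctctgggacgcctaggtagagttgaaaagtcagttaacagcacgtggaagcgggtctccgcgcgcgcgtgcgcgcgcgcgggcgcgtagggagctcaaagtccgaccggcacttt
In windows of 300 bases, 250 before and 50 after a start, the motif was in 7.81% of all 32851 promoters of the table. It was in 6.35% of the 11488 tested genes found there, in 20 of 155 genes that overshot upward (12.9%), in 6.15% of those gained higher and in 8.12% of those that stayed lower. The letter N allows any base, so TGAGTCA in Il11 and TGATTCA in Esx1 both count as matches, and the shares were not split by that base. A match describes these letters and is no evidence of binding.

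Of 16 matrix proteases and inhibitors 6 were higher and 3 lower, and 5 returned. The protease gene Plau was at least 17.6-fold higher, Mmp9 5.86-fold, Mmp14 4.10-fold and the inhibitor Timp2 4.43-fold, while Mmp2 stayed at least 32.1-fold lower. Of 12 integrins 6 were higher and 1 lower, led by Itgb4 (8.04-fold), Itgav (4.48-fold), Itga3 (4.22-fold) and Itga6 (4.10-fold). None of 14 fibrillar collagen and matrix genes was higher and 6 were lower: Col1a1 read -0.58, -0.75 and -1.33 against 3.53, 3.60 and 3.52, 21.6-fold lower with no overlap, and Col1a2 was at least 136-fold lower.

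Of 14 contractile genes driven by serum response factor, 7 were lower and 2 higher, and 9 rose on induction, taking the median from -2.40 to -0.74. Acta2, smooth muscle actin, read 2.50, 2.70 and 2.75 in wild-type and -4.47, -3.55 and -4.12 in induced cells, 2 of them well above background, and was at least 104-fold lower. The groups were far apart. Tagln was 5.95-fold lower after 20.9-fold, and Actn1 (1.74-fold) and Myh9 (1.58-fold) higher. The YAP-TEAD targets, many of which also encode secreted or cytoskeletal proteins, had 5 of 13 higher and 1 lower, and 4 that returned. Thbs1 (thrombospondin) was among these: it was at least 214-fold below wild-type before induction and read 1.28, 2.26 and 1.66 after it, against 2.04, 2.22 and 2.16. Its ranges overlapped and the log2 difference of -0.41 was not called.

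Interferon response genes had a median of -1.56 after -1.76, the lowest of the lists apart from the feeder markers (-2.19), with 11 of 16 lower and 1 higher. Gbp2, a guanylate-binding protein, read 2.86, 2.77 and 2.75 in wild-type, was not above background in uninduced cells, and read -0.42, -0.71 and -0.58 in induced cells. It rose at least 64.4-fold and was still 10.3-fold below wild-type, without overlap. Psmb8, an immunoproteasome subunit, was not above background with or without Dox and was at least 139-fold lower; Isg15 (6.82-fold), Gbp3 (7.30-fold), Ifitm1 (4.99-fold) and Irf1 (3.09-fold) stayed lower. Of 21 genes of the ATF4 response and serine synthesis 9 were lower and 3 higher, among them the serine enzymes Phgdh (4.44-fold lower) and Psat1 (2.62-fold lower), while Atf4 itself stayed 1.77-fold higher.

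**Figure D2:**
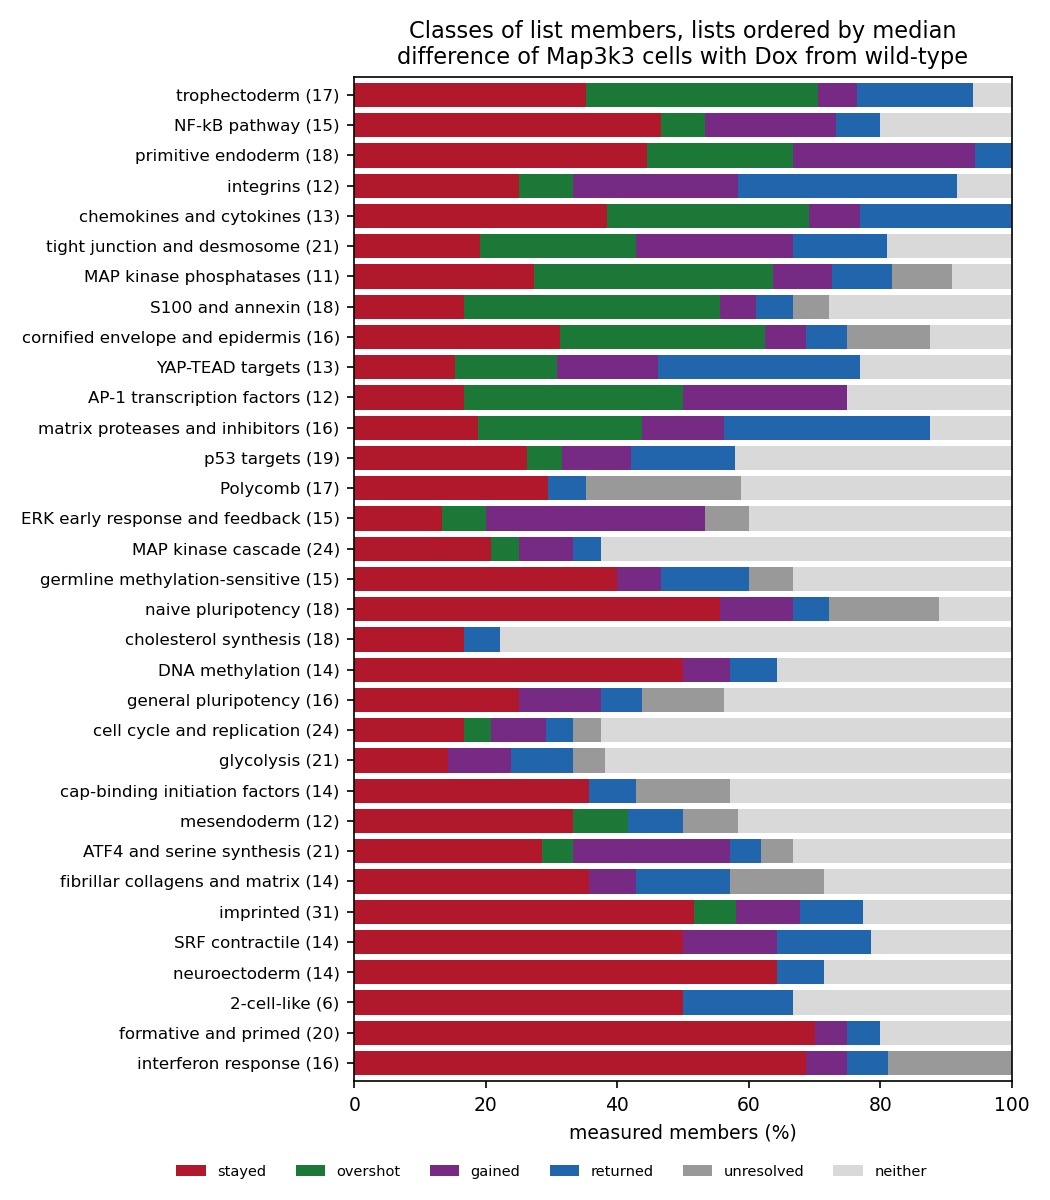
Bars give the share of the measured members of each list (numbers in brackets) in each class, with lists ordered by the median log2 difference of induced from wild-type cells. Formative, interferon and neuroectoderm genes are mostly in the class that stayed, and MAP kinase phosphatase and S100 and annexin genes hold the widest shares that overshot; over all genes tested 1.52% overshot.

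Some groups lay at or below the share called over all genes, 38.3%. Of 18 genes of cholesterol synthesis 3 were higher and none lower, of 21 glycolysis genes 4 were higher and 1 lower, of 24 cell cycle and replication genes 5 were higher and 2 lower, and of 17 Polycomb genes 4 were higher and 1 lower. Single members stood out, such as the cell cycle inhibitor Cdkn2a, which stayed 6.57-fold higher after 2.43-fold, the cyclin Ccnd2 (3.63-fold lower), Ldhb (3.58-fold lower) and the Polycomb gene Bmi1 (4.42-fold higher). Of 14 cap-binding initiation factors Eif4g2, Eif4b, Eif4e3 and Eif4ebp1 were lower and Eif4e2 higher, and the scaffold Eif4g1 (0.03) was not called. Of 19 p53 targets 6 were higher and 2 lower, slightly above the share of all genes.

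Among the genes gained without belonging to a list, Cryab, a small heat shock protein, read 2.46, 2.57 and 2.57 in wild-type, 2.67, 1.79 and 2.86 in uninduced and 7.59, 7.54 and 7.54 in induced cells. It was 32.5-fold above wild-type, with no overlap, and was not called before induction (1.07-fold). Mal, a lipid raft protein, was 22.5-fold higher and the prostaglandin transporter gene Slco2a1 22.0-fold. Genes that were called lower only after induction had smaller differences: Acss1, an acetyl-CoA synthetase, 8.12-fold lower, Dpys 7.59-fold, Crispld2 7.41-fold, Pdlim4 6.58-fold and Gpx2, a glutathione peroxidase, 6.38-fold. In the last 4 array 2 of the uninduced cells stood apart from the others, for example 1.25 in Gpx2 against 2.60 and 3.11. With the slide as a block Dpys (adjusted p = 0.297), Pdlim4 (0.506) and Gpx2 (0.182) were no longer called.

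Overshoot below wild-type was rare and small. Klk1 (2.25-fold lower), Klk1b5 (2.16-fold), Klk1b26 (2.14-fold) and Klk1b4 (1.82-fold), neighbouring kallikreins with near-identical copies whose probes may share signal, and Atp6v0a4 (1.88-fold) were the leading members. Klk1 read -0.23, -0.55 and -0.35 in wild-type, 0.19, 0.67 and 0.34 in uninduced and -1.84, -1.25 and -1.55 in induced cells, without overlap. Atp6v0a4, a proton pump subunit, lost its call when either array 1 or array 2 of the wild-type or array 2 of the induced cells was left out (adjusted p = 0.0960, 0.0772 and 0.136), and its arrays overlapped.

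Genes that returned included some that had been nearly silent. Vgf, which encodes a secreted neuropeptide precursor, read 3.25, 3.30 and 3.28 in wild-type, -3.11, -2.48 and -2.69 in uninduced and 2.96, 4.24 and 2.44 in induced cells. It rose 62.8-fold, and the induced arrays lay on both sides of the wild-type values. Cd34, a sialomucin, rose 57.7-fold, Vopp1 34.8-fold, Gadd45g, a stress sensor, 34.4-fold and Prtg (protogenin) 33.0-fold. Cd34 read 1.67, 3.07 and 1.61 against 0.91, 1.01 and 1.17 in wild-type, above it on every array, but its 2.12-fold difference was not called (adjusted p = 0.0708). The protease gene Prss23 rose at least 340-fold, to 1.21, 2.92 and 1.12 against 1.51, 1.44 and 1.44. Of the genes that fell back, Mitf, a transcription factor of melanocytes, read 0.41, 0.57 and 0.57 in wild-type, 2.65, 2.81 and 2.55 in uninduced and 0.66, 0.50 and 0.53 in induced cells, a fall of 4.31-fold. Induced arrays 2 and 3 lay within the wild-type range and array 1 just above it. Scgb3a1, a secretoglobin, fell 4.33-fold, Grin2c 3.97-fold, Ly6g6d 3.84-fold and Khdc3 3.49-fold. The 1.81-fold excess left in Grin2c, a glutamate receptor subunit, was called with the replicate block (limma adjusted p = 0.00312) and in several other settings. Cd34 was called higher with the normexp background correction (limma adjusted p = 0.0144), and Ly6g6d lower with the slide as a block (0.0195).

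**Figure D3:**
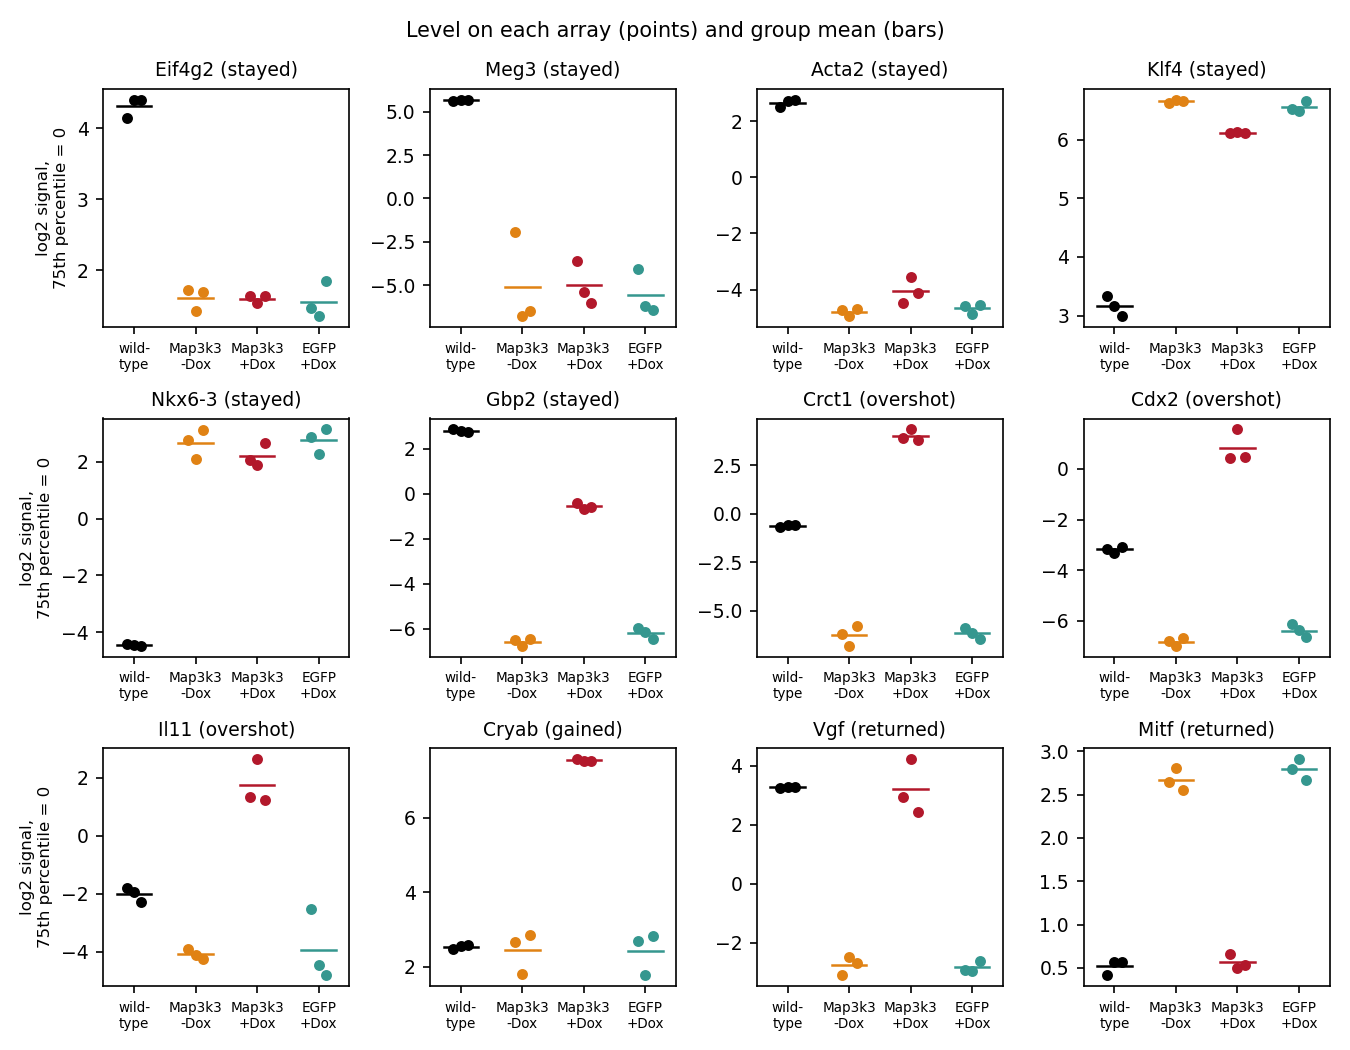
Points are single arrays and bars group means of the log2 signal, with 0 at each array's 75th percentile, for wild-type, uninduced, induced and EGFP cells; each panel has its own axis and names the gene and its class. Eif4g2, Meg3 and Acta2 stay low and Klf4 and Nkx6-3 stay high with Dox, and Gbp2 rises part of the way. Crct1, Cdx2 and Il11 pass wild-type, and Cryab leaves it. Vgf and Mitf move toward wild-type and are not called after induction.

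The differences from wild-type also followed chromosomes. Over 11872 genes well above background on all 15 arrays, the median difference of a chromosome's genes, less that of all genes on the array, was -0.41 ± 0.03 (SD, n = 3) for chromosome 8 and -0.33 ± 0.01 for chromosome 11 in induced cells. On all 12 null-derived arrays, chromosome 8 lay between -0.44 and -0.34 and chromosome 11 between -0.38 and -0.31, while the X chromosome was at -0.15 ± 0.02 in induced cells. The other 16 chromosomes, leaving out chromosome 1, had induced means between -0.08 and 0.16. Of the genes tested, 37.3% were called lower on chromosome 8, 31.8% on chromosome 11 and 35.0% on the X, against 10.4 to 22.3% on each of those 16. Without chromosomes 1, 8, 11, X and Y, 2211 genes were higher and 1909 lower.

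Chromosome 1 separated the arrays by number. In induced cells its median was 0.36, 0.09 and 0.34 on arrays 1, 2 and 3. Across the 4 null-derived groups number 1 lay between 0.30 and 0.36, number 2 between -0.03 and 0.09 and number 3 between 0.27 and 0.39. The Y-linked genes Ddx3y and Eif2s3y followed the numbers too. Ddx3y, a helicase gene, read 1.96, 2.17 and 2.09 in wild-type and 0.54, 1.69 and 0.07 in induced cells, and Eif2s3y 3.63, 3.75 and 3.77 against 2.23, 3.33 and 1.37. In both genes array 2 was nearest to wild-type in every null-derived group, and neither difference was called. Rbmy and Zfy1, also Y-linked, were lower in induced cells, by log2 differences of -2.01 and -3.71 (limma adjusted p = 0.00159 and 1.29e-07). Neither was well above background on any induced array. The labels do not say what the numbers stand for. The cause of this pattern was not tested. The lower medians of chromosomes 8, 11 and X are shared by all null-derived groups, so cell line and loss of Nat1 cannot be told apart there. Of the genes named here, Col4a1, Col4a2, Crispld2, Dusp4, Eif4ebp1, Jund, Klf2, Marveld3, Mmp2, Nkx6-3 and Zfp42 lie on chromosome 8. On chromosome 11 lie Anxa6, Ccl2, Ccl7, Cldn7, Col1a1, Csf2, Dusp14, Etv4, Grb10, Grin2c, Hand1, Irf1, Itga3, Itgb4, Map3k3, Meox1, Pdlim4, Pecam1, Scgb3a1, Timp2 and Wnt3. On the X chromosome lie Dusp9, Esx1, Klhl13, Plac1, Pnma5, Sox3 and Tspan7, and on chromosome 1 Atf3, Cd34, Dusp10, Eif4e2, Gbx2, Inhbb, Lefty1, Prdm14, Sox17, Tfcp2l1, Twist2 and Wnt10a. The part of the chromosome in their differences from wild-type was not tested.

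**Figure D4:**
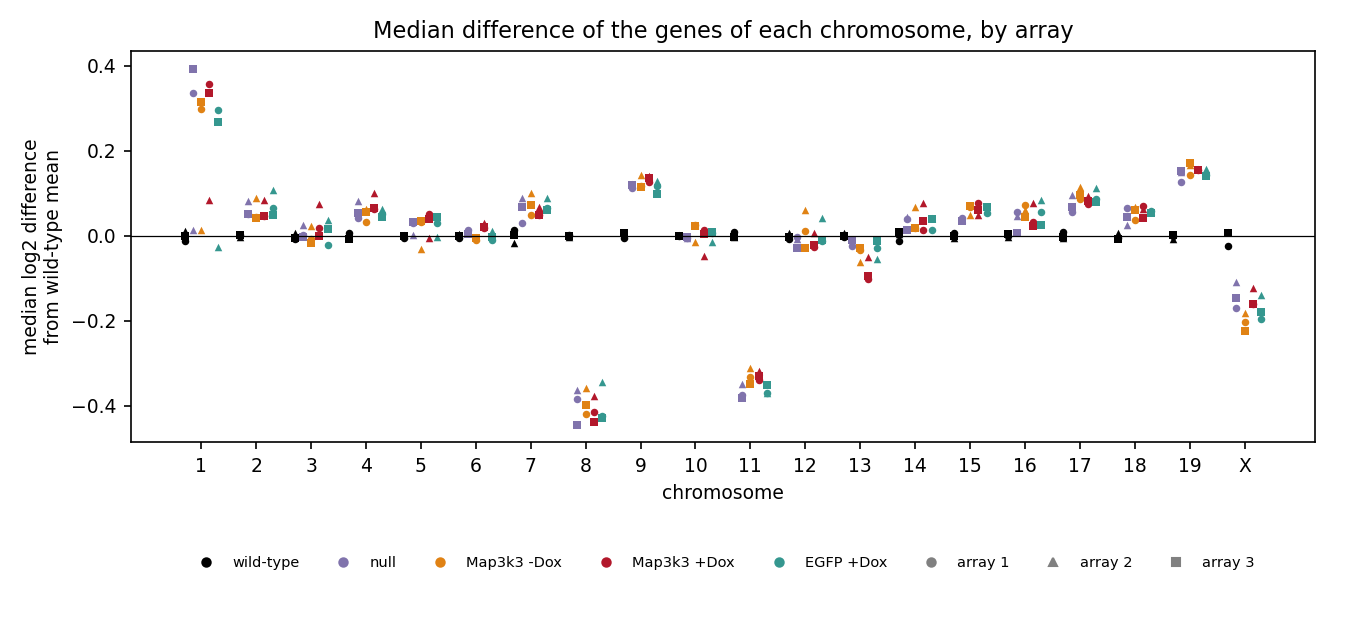
Each point is 1 array, giving the median log2 difference from the wild-type mean over the genes of a chromosome, less the median over all genes of the array; colours are groups and symbols array numbers. All 12 null-derived arrays lie below wild-type on chromosomes 8, 11 and X, and on chromosome 1 the arrays numbered 2 stay near 0 while those numbered 1 and 3 lie between 0.27 and 0.39.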

How the data were processed

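Total RNA was hybridised to single-colour Agilent arrays. The deposited tables hold an intensity, the processed green signal, which the authors' Feature Extraction software (11.5.1.1, per the file headers) had corrected for background. Flagged outlier spots were left out here, spots of a probe averaged, log2 taken and each array's 75th percentile over non-control probes subtracted. The authors' deposited log2 table correlated with these values at 1. Of 55681 probes 28331 were named by RefSeq accession. Probes well above background on all 3 arrays of a group were kept, and the brightest stood for its gene. One limma (3.58.1, R 4.3.3) model of 5 group means gave two-sided tests, adjusted by Benjamini-Hochberg over 14459 genes; it was tested on simulated data. In 20 genes an array had no value. Genes named were the largest by difference or bound in each direction and class, plus members of 36 lists (655 genes, 561 measured); members, rules and lists were chosen with earlier results of these data known. Lists have counts and medians, no test, and some members are not reported here by name. Equal array numbers paired the induced and uninduced arrays (correlations of deviations from the group means 0.17, 0.34 and 0.26), not induced and wild-type (0.05, 0.06 and 0.01). The tables lack a mean signal, so the normexp alternative used the median signal. Chromosomes come from RefSeq (GRCm38.p6) by symbol.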

Additional observations from a re-analysis of the deposited data

How the results depend on the processing

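Of 148 changes of setting for the 6 counts, 12 moved a count by more than 1.5 times. Without the filter on dim probes 4591 genes were higher and 3367 gained; with probes detected on all 15 arrays 1692 were lower, 126 overshot and 475 returned; without a fold minimum 4411 were higher, 4510 lower, 6637 stayed, 408 overshot and 1478 returned. With the slide as a block 92 overshot, 82 of the same genes, and the median SE was 0.22 against 0.12. Leaving out chromosomes 1, 8, 11, X and Y, an alternative chosen after seeing the data as were subtracting chromosome medians and a block among null-derived arrays only, left 1909 lower. The number of genes tested was 21368 without the filter, 11877 with all arrays required and 11110 without those chromosomes, against 14459. The cause of the moved counts was not tested. Leaving out 1 array gave 2581 to 2664 higher, 2736 to 2894 lower, 3708 to 3916 stayed, 181 to 220 overshot, 1389 to 1513 gained and 665 to 723 returned. The replicate block gave 2724 higher and 2977 lower and moved no count by over 1.5 times. Among the genes named as the largest by difference or bound, it changed no call but that of Grin2c. The share of calls that were higher was 48.0%, and 60.0% without the filter, 58.1% with probes detected on all arrays and 53.7% without those chromosomes. For those genes, with Eif4g2 and Map3k3, 1193 changes of setting kept the call, 8 gained it, 11 lost it and none reversed. Those lost were in Atp6v0a4, Klk1b4, Dpys, Gpx2 and Pdlim4, and those gained in Grin2c, Cd34 and Ly6g6d. Genes named only as list members were not counted here. Signal near background limits the genes given as bounds.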

Other observations

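Probes without a gene symbol were left out of the counts above. Of 10851 such probes that passed the filter, 1345 were higher and 1562 lower in induced than in wild-type cells (26.8%). Those named by genome position, mostly long noncoding RNA loci, numbered 5817, with 758 higher and 913 lower.

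Zfy1, a Y-linked zinc finger gene, read -1.92, -2.25 and -2.02 in wild-type cells and was well above background on no induced array. Of the blood markers, Laptm5, a lysosomal membrane protein, was 14.6-fold and Fcer1g, an immune receptor chain, 5.18-fold higher in induced cells, with Ptprc below background in both groups. Laptm5 read 2.27, 2.67 and 2.36 in induced against -1.40, -1.43 and -1.47 in wild-type cells, without overlap, and was as high in uninduced cells at 2.42, 2.74 and 2.67.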
